A study of Rattus norvegicus with 15 samples.

Results

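The HSP70 and HSP110 chaperones described here are 9 genes of the 37367 in the expression table, namely Hspa1b, LOC108348108, Hspa1l, Hspa2, Hspa8, Hspa9, Hspa4, Hspa4l and Hsph1. Their level in a library was the sum of the FPKM (read fragments scaled by transcript length and library size) of all transcripts that carried the gene's name, plus the unnamed transcripts of its locus where that locus held no other name. The genes were chosen from their measured values in these libraries, so their levels and changes in every comparison are given as a description, without a test.

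RNA was sequenced from primary cultures of brain microvascular endothelial cells (BMECs), prepared from the cerebral microvessels of Spraque-Dawley rats (as the labels spell it) that were littermates aged 2 to 3 weeks. A total of 15 libraries fell into 5 groups of 3, which were the unexposed control group and cells collected 12 or 24 h after 5 or 20 Gy of x-rays. The control cells were labelled as cultured for 12 h and received every other handling step of the exposed cells. No unexposed cells were followed to 24 h in the libraries used, and time in culture cannot be told apart from time after exposure at that time point. The sources describe the replicates as biological, but the labels do not tie a library to an animal or a culture, so the spread between them may be partly technical.

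The libraries held 5.44 to 7.49 gigabases of aligned sequence each. Several defining endothelial markers were at or near 0 in all of them. Tie1 was at 0 in 15 libraries and Cldn5 in 13, Cdh5 was at most 0.275 FPKM and Vwf at most 0.110 FPKM. Flt1 (1.16 to 5.48 FPKM) and Ocln (0.567 to 2.65 FPKM) were above 0 in every library. The summed level of the 10 endothelial markers in the table, of 12 listed, was 3.01 to 8.85 FPKM. The 6 fibroblast markers summed to 1790 to 1966 FPKM in the control group, 1380 to 1660 FPKM at 12 h and 747 to 902 FPKM at 24 h, and the 6 pericyte markers went from 54.4 to 62.1 FPKM in the control group to 16.0 to 26.9 FPKM at 24 h. These sums were lower in the same 24 h libraries in which most of the chaperones below were higher, and their part in those differences was not tested. Not every marker followed its sum. Most of the fibroblast difference lay in the collagen genes Col1a1 (516 FPKM in the control group, 27.0 and 31.4 FPKM 24 h after 5 and 20 Gy) and Col1a2 (414, 22.4 and 30.7 FPKM). Dcn (195.5, 82.3 and 82.8 FPKM) and Lum (206.8, 76.0 and 62.7 FPKM) were lower as well. Fbln1 (502, 581 and 567 FPKM) and Pdgfra (52.1, 60.8 and 51.6 FPKM) were not, with means within 1 FPKM of the control mean or above it. The pericyte difference lay in Pdgfrb (44.5, 18.2 and 11.7 FPKM) and Cspg4 (14.7, 6.96 and 6.59 FPKM), and the pericyte markers Kcnj8 and Abcc9 were at 0 in all 15 libraries. Markers of 4 further brain cell types were low, the highest list sum being 32.0 FPKM for astrocytes. The astrocyte sum was 9.80 to 12.4 FPKM in the control group and higher in the exposed groups. Most of that difference lay in Aldh1l1 (9.52 FPKM in the control group, 20.8 and 23.7 FPKM 24 h after 5 and 20 Gy).

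HSP70 proteins bind exposed hydrophobic stretches of unfolded proteins and release them in a cycle driven by ATP. J-domain proteins start that cycle and nucleotide exchange factors, among them the HSP110 proteins, complete it. Some family members are made at all times for routine folding and import, whereas others are made mainly after heat or other protein-damaging stress, when the factor HSF1 binds repeats of the unit nGAAn (heat shock elements) in their promoters.

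Promoter sequence of the members was searched for such units. RefSeq (GRCr8) gave a promoter for 7 of the 9 genes. Hspa1b was looked up by that symbol and LOC108348108 by its gene number, and neither lookup found an entry. The symbol Hspa1a, for which RefSeq lists Hspa1b as a synonym, was not searched. The 250 bases before the start site were searched on both strands for 3 adjoining inverted units (TTCNNGAANNTTC or its reverse complement GAANNTTCNNGAA) and for 2 such units, inward (TTCNNGAA) or outward (GAANNTTC), which lie within every 3-unit match. The 3-unit form was found in 0.663% of 33469 promoters, the inward pair in 7.48% and the outward pair in 7.23%. Hspa8 held 2 matches of the 3-unit form, starting 213 and 55 bases before the start site, and Hsph1 held 1, starting 36 bases before it. Hspa2 held 1 inward pair and Hspa9 held 1 outward pair, and Hspa1l, Hspa4 and Hspa4l held none of these letters in the window. A match describes the letters and does not show binding. The 3 sequences printed are the ones with a 3-unit match and, for comparison, that of the HSP110 gene Hspa4, with every match in capitals.
Hsph1 (GRCr8 chr12:10427118-10427367, plus strand): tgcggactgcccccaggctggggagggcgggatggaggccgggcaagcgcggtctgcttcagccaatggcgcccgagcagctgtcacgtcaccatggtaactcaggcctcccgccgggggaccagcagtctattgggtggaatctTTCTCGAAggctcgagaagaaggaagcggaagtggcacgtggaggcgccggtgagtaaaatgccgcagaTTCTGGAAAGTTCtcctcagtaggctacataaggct
Hspa8 (GRCr8 chr8:50080264-50080513, plus strand): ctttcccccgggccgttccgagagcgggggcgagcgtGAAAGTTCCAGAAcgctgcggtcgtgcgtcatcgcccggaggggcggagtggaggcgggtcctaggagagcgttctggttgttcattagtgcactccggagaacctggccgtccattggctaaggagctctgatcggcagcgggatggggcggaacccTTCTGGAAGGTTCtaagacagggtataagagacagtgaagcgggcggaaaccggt
Hspa4 (GRCr8 chr10:37949836-37950085, minus strand): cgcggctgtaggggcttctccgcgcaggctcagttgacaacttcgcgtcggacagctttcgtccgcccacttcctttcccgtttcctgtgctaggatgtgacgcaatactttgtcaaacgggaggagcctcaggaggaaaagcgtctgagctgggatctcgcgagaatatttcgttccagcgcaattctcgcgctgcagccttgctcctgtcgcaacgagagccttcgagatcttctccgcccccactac

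Hspa1b and LOC108348108, the classical stress-inducible HSP70 genes, had the largest differences in FPKM from the control group. They are near-identical genes of 1 exon on the minus strand of chromosome 20, Hspa1b at 4877324 to 4879779 and LOC108348108 at 2699712 to 2701815 (Rnor_6.0). RefSeq on the newer build gives the symbol Hspa1b to the gene numbered 108348108 and lists Hspa1b as a synonym of Hspa1a, so the names of the 2 copies differ between annotations. Hspa1b read 11.1, 11.03 and 9.15 FPKM in the control libraries, 10.7, 9.28 and 9.99 FPKM 12 h after 5 Gy, and 13.6, 14.8 and 14.4 FPKM 12 h after 20 Gy. At 24 h it read 1607, 1412 and 1044 FPKM after 5 Gy and 5612, 4706 and 4553 FPKM after 20 Gy. All 6 libraries of 24 h lay far above all others, and the doses did not overlap. The group means of Hspa1b were 10.4 ± 1.10 FPKM in the control group, 1354 ± 286 FPKM 24 h after 5 Gy and 4957 ± 573 FPKM 24 h after 20 Gy (SD, n = 3), ratios of 130.0 and 476 to the control mean. On log2(FPKM + 1) its change was 6.87 (SE 0.14) after 5 Gy and 8.76 (SE 0.14) after 20 Gy.

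LOC108348108 followed the same course, with 12.2 ± 1.40 FPKM in the control group, 1569 ± 327 FPKM 24 h after 5 Gy and 5994 ± 698 FPKM 24 h after 20 Gy. Its libraries read 13.02, 13.1 and 10.6 FPKM in the control group, 1868, 1619 and 1219 FPKM 24 h after 5 Gy, and 6795, 5521 and 5666 FPKM 24 h after 20 Gy. Hspa1b and the main LOC108348108 transcript stood at a ratio of 0.918 to 1.07 in all 15 libraries. Reads of near-identical copies can be assigned to either, and the copies cannot be told apart in this table. Their sum does not depend on that split, and it changed by 6.93 (log2, SE 0.14) after 5 Gy and by 8.85 (log2, SE 0.14) after 20 Gy at 24 h. Together the pair took 0.00433% to 0.00526% of all aligned bases in the control libraries, and at 24 h between 0.494% and 0.760% after 5 Gy and between 2.23% and 2.71% after 20 Gy.

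Hspa1b and LOC108348108 read slightly higher 12 h after 20 Gy, and as copies that cannot be told apart they give 1 signal. Each of the 3 libraries 12 h after 20 Gy read higher than every control and every 5 Gy library of 12 h for Hspa1b (14.2 ± 0.645 against 10.4 ± 1.10 and 10.0 ± 0.721 FPKM, SD, n = 3) and for LOC108348108 (16.9 ± 0.787 against 12.2 ± 1.40 and 11.7 ± 1.09 FPKM). The log2 change of Hspa1b from the control group was 0.42 (95% interval 0.12 to 0.72) 12 h after 20 Gy and -0.05 (95% interval -0.35 to 0.25) 12 h after 5 Gy. The difference between the doses at 12 h was 0.47 (95% interval 0.17 to 0.77) for Hspa1b and 0.50 (95% interval 0.19 to 0.81) for LOC108348108. These differences were below the 1.5-fold minimum used for a call. The intervals are unadjusted and describe genes chosen from these same values, so they are no test. The share of all genes with groups so separated was not computed at 12 h.

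**Figure D1:**
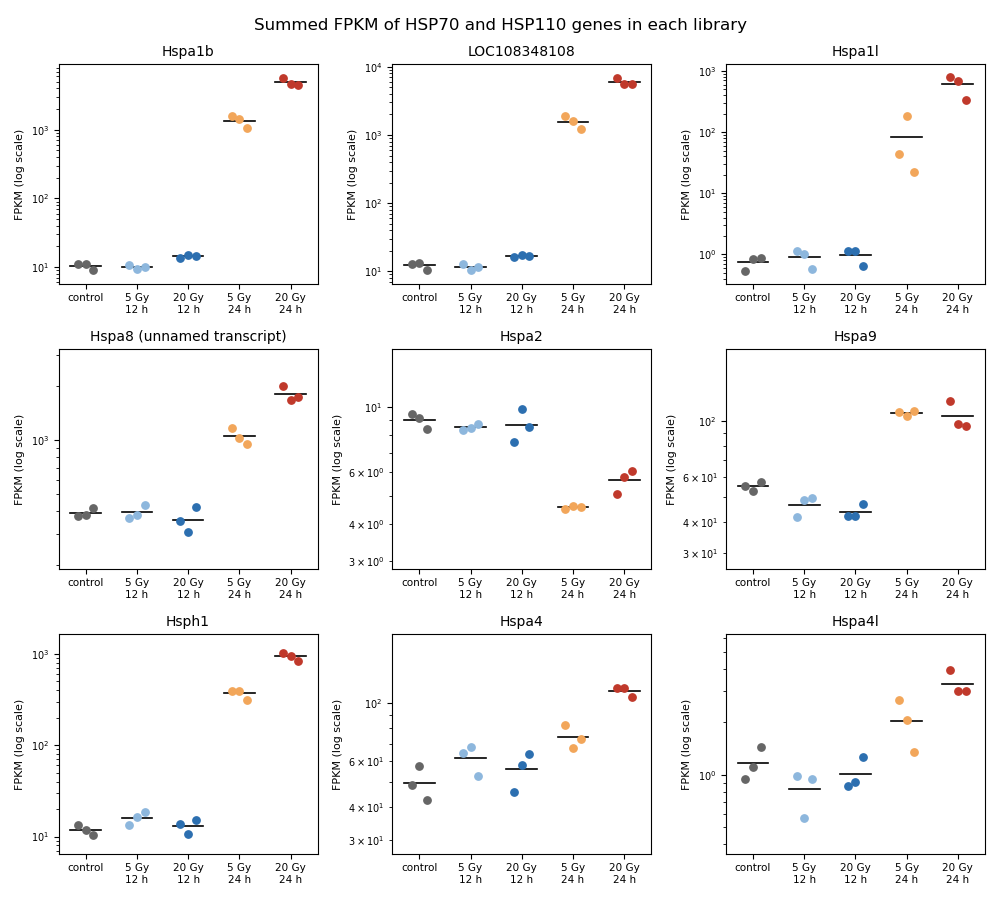
Summed FPKM (log scale, a separate range in each panel) of the 9 genes in each of the 15 libraries, grouped by dose and hours after exposure, with 1 point per library and a line at the group mean. Hspa8 is drawn from the unnamed transcript of its locus. The means of Hspa1b and LOC108348108 are 10.4 and 12.2 FPKM in the control group and 4957 and 5994 FPKM 24 h after 20 Gy, and that of Hspa2 is 9.02 FPKM against 5.64 FPKM.

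Hspa1l encodes an HSP70 protein known chiefly from the testis, and its gene neighbours the inducible HSP70 genes. By the summing rule it read 0.534, 0.829 and 0.875 FPKM in the control libraries, 44.3, 181 and 21.9 FPKM 24 h after 5 Gy, and 801, 684 and 339 FPKM 24 h after 20 Gy. These sums do not measure the annotated Hspa1l transcript. That transcript was at 0 in all control and all 5 Gy libraries of 12 h, at 0 to 0.250 FPKM 12 h after 20 Gy, and between 0.0136 and 0.0298 FPKM in every library of 24 h. Its share of the sum at 24 h was at most 0.0672%. The remainder lay in 11 unnamed transcripts of the plus strand, 10 of which overlap Hspa1b, a minus-strand gene, on the opposite strand. Whether the library kit kept the strand is not given in the sources used here, and without it reads of overlapping genes on opposite strands cannot be told apart. The Hspa1l sum also had the widest spread of all members, with a log2 change of 5.04 (SE 0.56) 24 h after 5 Gy that became 4.21 without replicate 2 and 5.71 without replicate 3 of that group. The annotated Hspa1l transcript thus stayed at or below 0.250 FPKM in every library. Most of the unnamed transcripts also extend over the annotated Hspa1l gene. MSTRG.13928.11 does so without overlapping Hspa1b. It read 0.378 to 0.790 FPKM in the control libraries, 12.2, 8.51 and 0.457 FPKM 24 h after 5 Gy, and 115.9, 0.899 and 1.35 FPKM 24 h after 20 Gy. A value near 0 beside expressed unnamed transcripts can be a failed estimate, so whether Hspa1l mRNA rose cannot be told.

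Hsph1, the heat-inducible HSP110 protein that exchanges nucleotide for HSP70, came next after the inducible pair. It read 13.6, 11.7 and 10.4 FPKM in the control libraries, 13.3, 16.2 and 18.4 FPKM 12 h after 5 Gy, and 13.7, 10.7 and 15.02 FPKM 12 h after 20 Gy, so the groups of 12 h overlapped the control group. At 24 h it read 396, 396 and 315 FPKM after 5 Gy and 1021, 952 and 834 FPKM after 20 Gy, without overlap between any of the 24 h groups and the rest. Mean FPKM was 11.9 ± 1.59 in the control group, 369 ± 46.7 after 5 Gy and 936 ± 94.7 after 20 Gy at 24 h, ratios of 31.1 and 78.8. The log2 changes were 4.84 (SE 0.15) and 6.19 (SE 0.15).

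The make-up of the Hsph1 signal differed between the doses at 24 h. Its annotated transcript, of 18 exons and 3446 bases on chromosome 12 (6322668 to 6341902, minus strand, Rnor_6.0), stood at 244, 241 and 214 FPKM 24 h after 5 Gy and at 256, 261 and 265 FPKM 24 h after 20 Gy. These values differ by little, with means of 233 ± 16.4 and 261 ± 4.74 FPKM. The other Hsph1 signal came from 12 unnamed transcripts of 3 to 15 exons, 11 of which had fewer exons and a greater length than the annotated one. All 12 had a higher mean 24 h after 20 Gy than after 5 Gy. The annotated share of Hsph1 FPKM was 88.5% to 97.1% in the control libraries, and at 24 h it lay between 60.9% and 68.1% after 5 Gy and between 25.1% and 31.8% after 20 Gy. Most of the dose difference of Hsph1 at 24 h therefore lay in the unnamed transcripts of its locus, while the annotated transcript itself was far above its control mean of 11.2 FPKM at both doses.

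**Figure D2:**
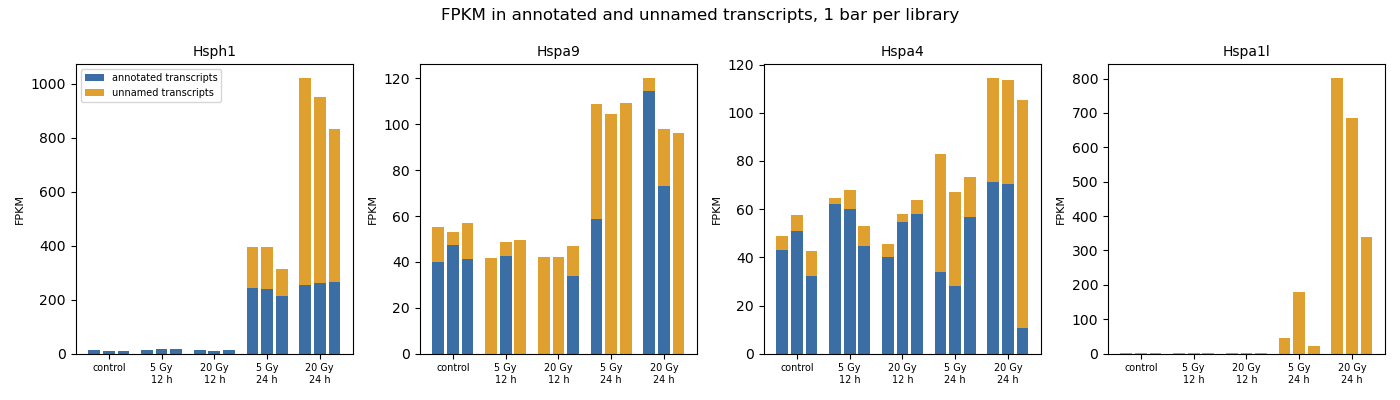
FPKM of Hsph1, Hspa9, Hspa4 and Hspa1l in each library, with 1 stacked bar per library (3 per group) split into annotated (blue) and unnamed (orange) transcripts of the gene. For Hsph1 the blue part stays at 214 to 265 FPKM at both doses at 24 h while the orange part is larger after 20 Gy, and for Hspa1l the bars are almost wholly orange.

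Hspa8 is the constitutive cytosolic HSP70 (HSC70), one of the most abundant chaperones of resting cells. By the rule it was listed at 0 in all 15 libraries, because the annotated transcript was at 0 and the unnamed transcript of the same exon number (8 exons, 2291 bases, chromosome 8, 44989289 to 44993258, plus strand, Rnor_6.0) lies in a locus that also carries the name RF00016. Such a 0 for a gene that every cell uses can be a failed estimate, and the level of Hspa8 was also taken from that unnamed transcript, a choice made after seeing the data. It then read 377, 382 and 420 FPKM in the control libraries, 366, 382 and 437 FPKM 12 h after 5 Gy, and 353, 307 and 422 FPKM 12 h after 20 Gy. At 24 h it read 1167, 1025 and 949.9 FPKM after 5 Gy and 2004, 1680 and 1739 FPKM after 20 Gy. Both 24 h groups lay above all libraries of 12 h, and the doses did not overlap. The means were 393 ± 23.6, 1047 ± 110.3 and 1808 ± 172 FPKM in the control, 5 Gy and 20 Gy groups of 24 h, ratios of 2.67 and 4.603 to the control mean. In log2 units the change was 1.41 (SE 0.12) after 5 Gy and 2.20 (SE 0.12) after 20 Gy. In FPKM the gain of Hspa8 after 20 Gy was greater than that of Hsph1, although its ratio was far smaller.

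Hspa9 encodes mortalin, the HSP70 of the mitochondrial matrix, which pulls imported proteins across the inner membrane. It read 55.1, 53.0 and 57.2 FPKM in the control libraries, 41.7, 48.5 and 49.6 FPKM 12 h after 5 Gy, and 42.1, 42.0 and 47.0 FPKM 12 h after 20 Gy, lower than every control library in all 6. At 24 h it read 109, 104.7 and 109 FPKM after 5 Gy and 120.1, 97.7 and 96.0 FPKM after 20 Gy. The ratio of means to the control group was 1.95 and 1.90, and the doses overlapped, with a log2 difference of -0.05 (95% interval -0.25 to 0.15). Hspa9 FPKM was split between the annotated transcript of 17 exons and an unnamed one of 16 exons on the same coordinates, and the annotated share ranged from 0% to 95.4% across libraries. Taken alone, the annotated transcript gave log2 changes of -3.48 and -1.10 (SE 2.25 each) 24 h after 5 and 20 Gy, and the unnamed one gave 2.78 and 1.04 (SE 0.97 each). Either transcript thus varied far more between libraries than their sum did.

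Hspa2, an HSP70 known from male germ cells, was the 1 member that stood lower than the control group at 24 h. The control libraries read 9.46, 9.21 and 8.40 FPKM and the 12 h libraries read 7.63 to 9.82 FPKM, whereas those of 24 h read 4.51, 4.599 and 4.58 FPKM after 5 Gy and 5.07, 5.79 and 6.06 FPKM after 20 Gy. The change was -0.85 (log2, SE 0.09) after 5 Gy and -0.60 (log2, SE 0.09) after 20 Gy, and every library of 20 Gy was above every library of 5 Gy. In bulk RNA, fewer cells of a type and less RNA per cell cannot be told apart.

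Hspa4 (APG-2) and Hspa4l (APG-1) are the other HSP110 proteins, and both are present without stress. Hspa4 read 48.8, 57.4 and 42.5 FPKM in the control libraries, 82.7, 67.1 and 73.2 FPKM 24 h after 5 Gy, and 114, 114 and 106 FPKM 24 h after 20 Gy. Its log2 change was 0.58 (SE 0.14) after 5 Gy and 1.16 (SE 0.14) after 20 Gy, without overlap between these 3 groups, while the 12 h groups (45.6 to 68.1 FPKM) overlapped the control group. Most of the gain lay in unnamed transcripts, since the annotated Hspa4 transcript had a mean of 42.0 FPKM in the control group, 39.6 FPKM 24 h after 5 Gy and 50.8 FPKM 24 h after 20 Gy. Its log2 change 24 h after 20 Gy was -0.10 (SE 0.56). Hspa4l was low throughout, with 0.944, 1.10 and 1.44 FPKM in the control libraries, 2.67, 2.04 and 1.35 FPKM 24 h after 5 Gy, and 3.96, 3.00 and 2.99 FPKM 24 h after 20 Gy. The 5 Gy libraries of 24 h overlapped the control libraries, and the 20 Gy libraries lay above both.

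**Figure D3:**
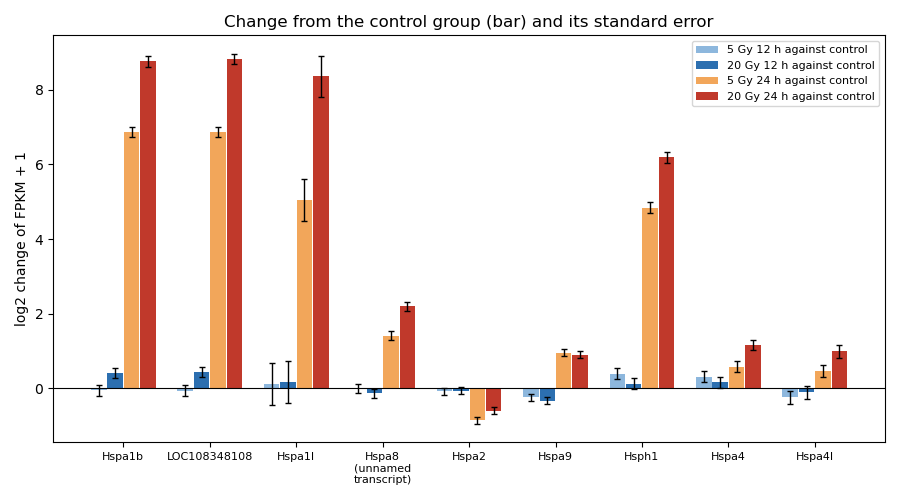
Log2 change of FPKM + 1 from the control group for the 9 genes, with 1 bar per exposed group and the standard error of the linear model as error bar. Changes at 12 h lie between -0.33 and 0.44, and those at 24 h reach 8.76 for Hspa1b and 8.82 for LOC108348108, 6.19 for Hsph1 and 2.20 for Hspa8, with Hspa2 below 0.

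Because FPKM is scaled by length, levels of different genes can be set side by side. In the control group the order was Hspa8 (393 FPKM), Hspa9 (55.1 FPKM), Hspa4 (49.6 FPKM), LOC108348108 (12.2 FPKM), Hsph1 (11.9 FPKM), Hspa1b (10.4 FPKM), Hspa2 (9.02 FPKM), Hspa4l (1.16 FPKM) and Hspa1l (0.746 FPKM). The ranges of Hspa9 and Hspa4 overlapped, as did those of each neighbouring pair from LOC108348108 to Hspa2. The order of Hspa9 and Hspa4, and that of LOC108348108 and Hsph1, changed between control libraries. Within each control library Hsph1 stood above Hspa1b, and Hspa1b above Hspa2. At 24 h after 20 Gy the order became LOC108348108 (5994 FPKM), Hspa1b (4957 FPKM), Hspa8 (1808 FPKM), Hsph1 (936 FPKM), Hspa1l (608 FPKM, in the unnamed transcripts named above), Hspa4 (111 FPKM), Hspa9 (105 FPKM), Hspa2 (5.64 FPKM) and Hspa4l (3.32 FPKM). There the ranges of LOC108348108 and Hspa1b overlapped, as did those of Hspa4 and Hspa9, but LOC108348108 stood above Hspa1b within each library. The inducible pair thus moved from the middle of the family to its top, above the constitutive Hspa8.

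Of the 9 members, 8 passed the filter of a mean of 0.5 FPKM, Hspa8 being listed at 0. A gene was called at a Benjamini-Hochberg adjusted p under 0.05 and a change of at least 1.5-fold in limma, and the share of all 17895 genes called is given beside each count for scale. Because the members were chosen from these same values, how many of them were past this rule is a description and no test, and nothing is read from the count. At 12 h no member was called after 5 Gy, where 4.98% of genes were called higher and 4.96% lower, nor after 20 Gy, where the shares were 4.9% and 3.64%. All 3 libraries of 5 Gy lay below all control libraries for Hspa9 (-0.24, log2). Those of 20 Gy lay above them for Hspa1b (0.42) and LOC108348108 (0.44) and below them for Hspa9 (-0.33). The share of all genes with groups so separated was not computed at 12 h, and nothing is read from these separations.

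At 24 h, 5 members were past the call rule upward (Hspa1b, LOC108348108, Hspa1l, Hsph1 and Hspa9) and Hspa2 downward after 5 Gy, where 20.5% of all genes were called higher and 20.8% lower. After 20 Gy, 7 members were past it upward, Hspa4 and Hspa4l being added, and Hspa2 downward, where 17% of genes were called higher and 23.3% lower. All 4 comparisons with the control group use the same 3 control libraries. Set against 12 h of the same dose, 6 members were past the rule upward and 1 downward after 5 Gy (17.1% and 19.3% of all genes) and 7 upward and 0 downward after 20 Gy (14.1% and 22.1% of all genes). The median log2 change of the 8 members was 2.90 after 5 Gy and 3.67 after 20 Gy at 24 h. That of all genes was -0.05 and -0.14. The members' medians fall between Hspa9 (0.95) and Hsph1 (4.84) after 5 Gy, and between Hspa4 (1.16) and Hsph1 (6.19) after 20 Gy. Hspa1b and LOC108348108 cannot be told apart from each other, and the Hspa1l sum lies mostly in transcripts opposite Hspa1b. The medians and counts of members may therefore weigh 1 signal more than once. With Hspa8 read from its unnamed transcript, 7 members were past the rule after 5 Gy and 9 after 20 Gy at 24 h.

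Dose dependence was compared directly between 20 and 5 Gy. At 12 h no member was past the rule, where 0.117% of all genes were called higher and 0.00559% lower. At 24 h the shares of all genes were 0.956% higher and 1.46% lower. The 4 members past the rule there, all upward, were Hspa1l (3.32, SE 0.56, in its unnamed transcripts), LOC108348108 (1.95, SE 0.14), Hspa1b (1.89, SE 0.14) and Hsph1 (1.34, SE 0.15), in log2 units. In FPKM, the 20 Gy mean was 3.66 times the 5 Gy mean for Hspa1b, 3.82 times for LOC108348108 and 2.54 times for Hsph1. Hspa8 followed with 0.79 (SE 0.12), then Hspa4 with 0.58 (SE 0.14), Hspa4l with 0.53 (SE 0.17) and Hspa2 with 0.25 (SE 0.09). Hspa9 was the exception, at -0.05. All 3 libraries of 20 Gy were above all 3 of 5 Gy in 7 of the 8 members, Hspa9 again excepted, and in 6.78% of all genes.

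Another scaling of the libraries kept the order of the doses in 7 members. Quantile normalization, which moved the median log2 change of all genes 24 h after 20 Gy from -0.14 to -0.03, turned the split of genes called between the doses at 24 h from 171 higher and 262 lower to 199 higher and 151 lower. Setting all libraries to an equal sum of FPKM moved the median 24 h after 5 Gy from -0.05 to 0.06 and gave 172 higher and 414 lower between the doses. Under these scalings the dose difference at 24 h was 1.55 and 1.82 for Hspa1b, 1.71 and 1.89 for LOC108348108, 1.199 and 1.28 for Hsph1, 0.56 and 0.52 for Hspa4, 0.34 and 0.20 for Hspa2, and -0.080 and -0.11 for Hspa9.

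**Figure D4:**
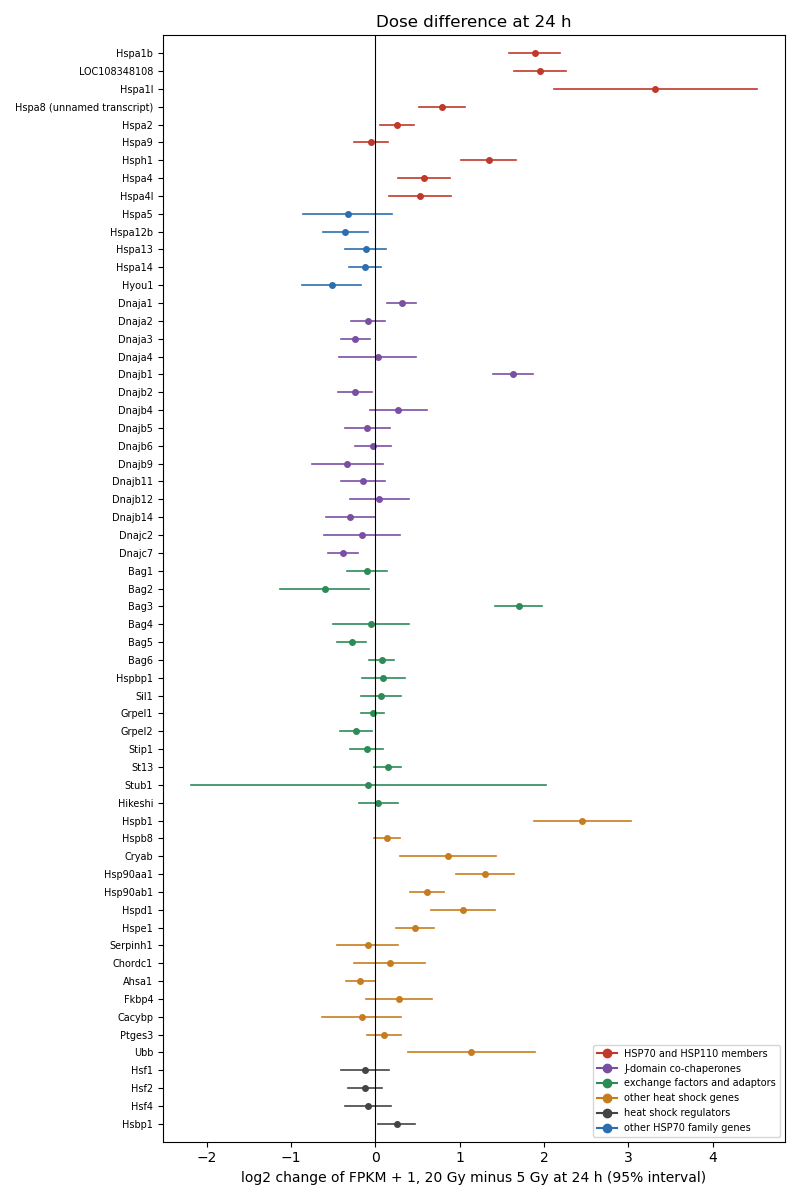
Log2 difference of FPKM + 1 between 20 and 5 Gy at 24 h, with its 95% interval, for the 9 members (red) and the 52 partner genes tested, colored by list. Hspa1b, LOC108348108, Hspa1l and Hsph1 lie above 1, next to Dnajb1 (1.63), Bag3 (1.70), Hspb1 (2.45) and Hsp90aa1 (1.30), whereas most partner genes lie near 0.

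Partner genes of the family were taken from 5 lists of 54 genes, of which 52 were tested with limma over all 17895 genes. These lists were chosen with earlier results of these data known, so their counts of calls do not rank one list above another. At 12 h, 1 was called lower after 5 Gy, the J-domain gene Dnajb1 (from 43.6 ± 3.35 to 26.5 ± 1.24 FPKM, log2 change -0.69, adjusted p 0.000772), and 2 were called without control replicate 1. None was called after 20 Gy at 12 h by limma, where 14 had an unadjusted p under 0.05, and 3 were called without control replicate 1. Dnajb1 had a similar mean there (29.2 ± 1.75 FPKM) without being called, so its lower level at 12 h was not particular to 5 Gy. At 24 h, 19 were called higher and 2 lower after 5 Gy, and 19 higher and 4 lower after 20 Gy. The shares of all genes given above, 20.5% higher and 20.8% lower after 5 Gy and 17% higher and 23.3% lower after 20 Gy, are the scale for these counts and for those of the single lists. Between the doses, none was called at 12 h by limma (2 at an unadjusted p under 0.05), and 6 were called higher and none lower at 24 h (11 and 9 at an unadjusted p under 0.05).

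Among the J-domain co-chaperones, 6 of 15 were called higher 24 h after 5 Gy, and 5 higher and 1 lower after 20 Gy. Dnajb1, the J-domain partner of the inducible HSP70, rose to 138 ± 12.2 FPKM at the lower dose (log2 change 1.64, adjusted p 7.54e-08) and to 432 ± 69.6 FPKM at the higher (log2 change 3.27, adjusted p 2.75e-10). Its difference between the doses was 1.63 (adjusted p 8.85e-06). Dnaja1, which works with Hspa8 and Hspa1b in the cytosol, rose from 88.2 ± 7.07 to 269 ± 11.9 and 334 ± 23.4 FPKM, and its dose difference was not called. Dnajc7 fell by 0.64 on the log2 scale after 20 Gy (adjusted p 1.83e-05), and its change of -0.58 without replicate 1 of that group missed the 1.5-fold minimum.

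Exchange factors and adaptors divided by member. Of 14, 5 were called higher and 1 lower 24 h after 5 Gy, and 4 higher and 1 lower after 20 Gy. Bag3, which links HSP70 to autophagy, rose from 27.0 ± 2.36 to 109 ± 17.6 FPKM after 5 Gy (log2 change 1.96, adjusted p 6.32e-08) and to 353 ± 17.6 FPKM after 20 Gy (log2 change 3.66, adjusted p 3.44e-10), with a dose difference of 1.70 (adjusted p 1.76e-05). Grpel1, the exchange factor of mitochondrial Hspa9, was called lower at both doses (log2 change -0.76, adjusted p 5.72e-07, and -0.80, adjusted p 4.34e-07), while Hspa9 itself was higher. Stip1, which hands clients from HSP70 to HSP90, and St13, an HSP70-binding adaptor, rose by less (log2 change 0.85 and 0.61 after 5 Gy, adjusted p 4.81e-06 and 1.09e-05), and St13 missed the 1.5-fold minimum without control replicate 1 (0.579) or without replicate 1 of the 5 Gy group (0.582).

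Of the other heat shock genes, 7 of 14 were called higher 24 h after 5 Gy and 9 of 14 after 20 Gy. The small heat shock protein gene Hspb1 rose from 45.9 ± 8.43 to 110.3 ± 26.1 FPKM after 5 Gy and 600.05 ± 72.5 FPKM after 20 Gy (log2 change 1.24, adjusted p 0.00138, and 3.69, adjusted p 1.72e-07). The mitochondrial chaperonin gene Hspd1 rose from 63.2 ± 15.3 to 266 ± 36.1 and 548 ± 94.8 FPKM, and the stress-inducible HSP90 gene Hsp90aa1 from 83.6 ± 8.25 to 275 ± 43.9 and 684 ± 139 FPKM. Dose differences at 24 h were called for Hspb1 (2.45, adjusted p 0.000308), Hsp90aa1 (1.30, adjusted p 0.000732), Hspd1 (1.04, adjusted p 0.00653) and Hsp90ab1 (0.62, adjusted p 0.00306). The last missed the 1.5-fold minimum without replicate 3 of the 5 Gy group (0.556) or replicate 1 of the 20 Gy group (0.547). Of the heat shock regulators, Hsf2 was called higher and Hsbp1, a negative regulator of HSF1, lower at both doses at 24 h, and Hsf1 itself was not called (19.1 ± 1.82 FPKM in the control group, 20.2 ± 1.62 and 18.7 ± 3.82 FPKM at 24 h).

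Of the 5 HSP70 family genes outside the 9 members that were tested, 1 was called against the control group, Hspa12b, and 2 were called lower at 24 h than at 12 h after 20 Gy, where 22.1% of all genes were called lower. Hspa5, the HSP70 of the endoplasmic reticulum (BiP), read 245 ± 13.5 FPKM in the control group, 277 ± 43.3 FPKM 24 h after 5 Gy and 225 ± 64.2 FPKM 24 h after 20 Gy, with log2 changes of 0.17 (95% interval -0.36 to 0.70) and -0.16 (95% interval -0.69 to 0.37). Hyou1, the HSP110 protein of the same compartment, was also not called against the control group, but was lower at 24 h than at 12 h after 20 Gy (37.5 ± 7.93 against 58.1 ± 1.31 FPKM, log2 change -0.64, adjusted p 0.00447). That call was lost without replicate 1 of the 20 Gy group of 24 h (-0.46) and, at -0.56, with quantile normalization. The same difference in time was -0.56 for Hspa5 (adjusted p 0.0681), which was not called. The atypical member Hspa12b was lower 24 h after 20 Gy than in the control group (log2 change -0.75, adjusted p 0.000184) and than 12 h after that dose (-0.76, adjusted p 0.000202). The median over the 5 genes for 24 h against 12 h after 20 Gy was -0.56, and that of all genes was -0.15. Whether these genes differ from the cytosolic members was not tested.

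The genes whose course over the 15 libraries was most like that of a member were found by the mean absolute difference in log2 change from the control mean, among genes with a mean of at least 5 FPKM. For the summed inducible pair the 5 closest were the unnamed locus MSTRG.13754 (0.48), Hspa1l (0.62), RF00016 (0.84), the AP-1 gene Fosl2 (0.92) and the unnamed locus MSTRG.22337 (0.96). For Hsph1 they were the nuclear receptor gene Nr4a2 (0.35), MSTRG.22337 (0.38), Nr4a3 (0.39), Rasgef1b (0.41) and Fosl2 (0.43). Unlike Hsph1, Nr4a2 stood at about the same level at both doses at 24 h, with 108 ± 11.1 and 105 ± 23.0 FPKM. So did Nr4a3 (87.0 ± 6.52 and 98.0 ± 16.3 FPKM) and Rasgef1b (27.2 ± 2.69 and 27.4 ± 1.11 FPKM). Fosl2, named for the pair and for Hsph1, had no higher mean after 20 Gy (599 ± 98.5 and 525 ± 65.4 FPKM). For Hspa8 they were AABR07031521.1 (0.093), MSTRG.5125 (0.11), LOC680121 (0.13), MSTRG.20436 (0.13) and MSTRG.8194 (0.14). RefSeq names AABR07031521.1 as the pseudogene Hsc70-ps2, and its 52.6 ± 3.58 FPKM in the control group and 233 ± 32.4 FPKM 24 h after 20 Gy cannot be told apart from reads of Hspa8. In this ranking RF00016 was summed over every entry of that name (2.20 FPKM in the control group), not only the entry in the Hspa8 locus (0.658 FPKM). MSTRG.13754 and MSTRG.22337 lie opposite LOC108348108 and Hspa8, as most Hspa1l transcripts lie opposite Hspa1b. The part of shared reads in their likeness was not tested.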

How the data were processed

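Libraries of rat BMECs were sequenced by the authors on an Illumina platform. HISAT2 was used for mapping to Rnor_6.0 and StringTie for assembly, and the authors deposited a table of FPKM values for 85322 transcripts in 40272 loci. These values, normalized by the authors for transcript length and library size, were used without rescaling. The authors also name kallisto counts and edgeR, and counts were not analysed here. The 9 genes and all gene lists were chosen with earlier results of these data known. One gene is not reported here and was left out of its list after the analysis.

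Transcripts were summed per gene, which gave 37367 genes and left 4738 transcripts in the 909 loci with several names unassigned. Library depth was read from low FPKM values. At the total given for each library, 58.3% to 67.3% of 600 low values came to whole covered bases (tolerance 0.05), against a median of 10.0% to 10.7% at other totals. The number of aligned bases limits the precision of low values.

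Genes with a mean of at least 0.5 FPKM (17895) were fitted with limma 3.58.1 (R 4.3.3) on log2(FPKM + 1), with 1 mean per group over all 15 libraries, 10 residual degrees of freedom and a trended variance prior. Fold changes on this scale understate the change of low genes. Calls needed a two-sided p, adjusted by Benjamini-Hochberg over all genes, under 0.05 and a 1.5-fold change. For the 9 genes only the change, its SE and its interval are given. The fit was tested on simulated data. Named genes were every member, up to 4 called genes of each partner list and comparison, including the largest and smallest change, and the 5 genes most like the summed pair, Hsph1 and Hspa8, with further genes named after their values were seen (Hspa5, Hyou1, Hsf1). Alternatives were a pseudocount of 0.1, other filters, scalings and variance priors, only the groups compared, the replicate number as a block, the top transcript per gene, a 2-fold minimum, named transcripts only, the summed pair, leaving out each library, and, added after seeing the data, Hspa8 from the unnamed transcript of its locus.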

Additional observations from a re-analysis of the deposited data

Results flagged for a closer look

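The change from 12 h to 24 h differed between the doses for 4 partner genes, by a test of the difference itself in limma. The rise was greater after 20 Gy than after 5 Gy by 1.75 (log2, SE 0.18, adjusted p 0.000882) for Bag3, 1.498 (SE 0.15, adjusted p 0.000882) for Dnajb1, 1.16 (SE 0.22, adjusted p 0.042) for Hsp90aa1 and 2.15 (SE 0.38, adjusted p 0.0257) for Hspb1. The same quantity, given without a test, was 1.42 (SE 0.20) for Hspa1b, 1.61 (SE 0.21) for Hsph1, 0.93 (SE 0.18) for Hspa8 and 0.04 (SE 0.13) for Hspa9.

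A signal also appeared in RF00016, an annotated small RNA of 84 bases within the Hspa8 locus (chromosome 8, 44992796 to 44992879, plus strand, Rnor_6.0), which is not part of the Hspa8 sum. The control libraries read 0.409, 0.648 and 0.916 FPKM. At 24 h the mean was 75.5 ± 18.8 FPKM after 5 Gy and 395 ± 110 FPKM after 20 Gy (SD, n = 3), with 53.8 to 87.5 FPKM and 295 to 513 FPKM in single libraries, above every control library. The part of Hspa8 reads in these values was not tested.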

How the results depend on the processing

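Of the 880 values of member changes recomputed under the alternatives, 799 stayed within the spread of the main value, 72 moved beyond it and 9 changed sign. A change of sign was counted for a member only where the main value was past the call rule. Other changes of sign are among the 799 and the 72. With the highest transcript, for example, Hspa9 went from -0.24 to 0.999 12 h after 5 Gy. Of 6656 values for partner genes, 6501 kept their side of the threshold, 87 were lost, 62 were gained and 6 changed sign. Here a change of sign was counted only with a call in the main or the alternative fit, and any others are among the 6501. Counts of partner genes called 12 h after 5 Gy (1) became 4 with the transcript of the highest mean and 0 with a 2-fold minimum, and those 12 h after 20 Gy (0) became 1 with only the groups compared and 1 with the highest transcript. With a 2-fold minimum 15 were called 24 h after 20 Gy (23), 15 for 24 h against 12 h after 5 Gy (23) and 15 for 24 h against 12 h after 20 Gy (23), and with only the groups compared 3 were called between the doses at 24 h (6). Members past the rule 24 h after 20 Gy (8) became 5 with the highest transcript and 5 with named transcripts only, 24 h against 12 h after 5 Gy (7) became 3 with the highest transcript, 24 h against 12 h after 20 Gy (7) became 4 with named transcripts only, and 20 against 5 Gy at 24 h (4) became 2 with named transcripts only. The alternatives by transcript drop part of a gene's signal by construction, and the cause of the other shifts was not tested.

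Leaving out 1 library at a time gave 1 to 2 partner genes 12 h after 5 Gy (2 without control replicate 1), 0 to 3 at 12 h after 20 Gy (3 without control replicate 1, 1 without replicate 2 of that group), 20 to 23 and 21 to 25 at 24 h after 5 and 20 Gy, 22 to 24 and 22 to 27 for 24 h against 12 h, 0 to 0 between the doses at 12 h and 5 to 6 at 24 h. For members the ranges were 0 to 0 in the comparisons of 12 h, 6 to 8 and 7 to 8 at 24 h, 6 to 7 and 7 to 8 for 24 h against 12 h, and 4 to 5 between the doses at 24 h.

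The changes of sign counted above all came from the transcript-level alternatives. With the highest transcript, log2 changes became 2.04 for Bag4 and 0.69 for Hsf2 12 h after 5 Gy, -0.072 for Hspa1l and -1.36 for Bag2 24 h after 5 Gy, -0.10 for Hspa4 and -2.59 for Cacybp 24 h after 20 Gy, -0.029 for Hspa1l and -0.56 for Bag2 for 24 h against 12 h after 5 Gy, and -0.23 for Hspa9, -0.38 for Hspa4 and -2.40 for Cacybp for 24 h against 12 h after 20 Gy. With named transcripts only they became -3.48 and -1.10 for Hspa9 24 h after 5 and 20 Gy, and -0.10 and -0.38 for Hspa4 24 h after 20 Gy against the control group and against 12 h.

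The replicate block left every count of calls as it was (1, 0, 21, 23, 23, 23, 0 and 6 partner genes). Replicate numbers showed no pairing, since deviations of same-numbered libraries correlated at -0.177 to 0.232 (median 0.00875 over 30 pairs), against -0.209 to 0.203 for different numbers.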

Other observations

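Unnamed transcripts were assembled on the strand opposite to 3 of the HSP70 genes, and their levels were higher in the same 24 h libraries as those genes. Besides the 10 transcripts opposite Hspa1b described above, the unnamed locus MSTRG.13754 (6 transcripts of 285 to 998 bases, chromosome 20, 2699852 to 2701981, plus strand, Rnor_6.0) lies opposite LOC108348108. It read 0.499 ± 0.680 FPKM in the control group, 247 ± 78.1 FPKM 24 h after 5 Gy and 988 ± 269 FPKM 24 h after 20 Gy. The unnamed locus MSTRG.22337 (1 transcript of 286 bases, chromosome 8, 44991509 to 44992207, minus strand) lies opposite Hspa8, and read 0.304 ± 0.321, 37.8 ± 12.8 and 146 ± 52.0 FPKM. Without knowledge of the strand of the reads, these values cannot be told apart from reads of the HSP70 genes themselves.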
